A study of Mus musculus with 11 samples.

Results

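The connective tissue cells of the healthy mouse spinal cord were compared with the whole cord that surrounds them. The cells carried green fluorescent protein (GFP) and came from C57BL/6 Col1a1GFP mice, a reporter strain in which the promoter of the collagen I gene Col1a1 drives the fluorescent protein. Members were chosen by their labels and number 5 of the 11 libraries of the series: 3 libraries of sorted cells (control 1, 3 and 4) and 2 of whole cord (1 and 3), all from mice labelled as healthy. Each sorted library pooled 2 to 3 cords, which were dissociated and passed through a cell sorter. Each whole cord library came from 1 full cord of a C57BL/6 mouse, a strain label with no reporter. The sorting protocol also stands in the labels of the whole cord libraries, but the design text calls these samples homogenate and they were treated as unsorted. The sources used here give neither age nor sex.

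Several features of this design limit every value below. The reporter marks any cell that uses the Col1a1 promoter, so the sorted fraction can hold more than 1 cell type. Dissociation, sorting and pooling were applied to the sorted cells alone, so effects of preparation and of cell identity cannot be told apart. In bulk RNA a higher level can mean more cells of a type or more RNA per cell, and these cannot be told apart either. The sorted pools are biological replicates per the design text and each whole cord library came from its own cord, so the p-values measure the spread between these pools and cords.

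Fibroblasts of the central nervous system lie outside the neural tissue, in the dura, arachnoid and pia that wrap the cord and in the sheaths of larger blood vessels. They lay down the collagen and laminin matrix of these layers, and arachnoid barrier cells, joined by tight junctions and rich in carriers, separate the blood side from the cerebrospinal fluid. Forkhead, Zic and T-box transcription factors are known from the development of the meninges, and retinoic acid, bone morphogenetic proteins (BMPs) and the chemokine Cxcl12 are known as signals from the meninges to neighbouring neural tissue.

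Depth ran from 7943615 to 10300867 counts in the sorted libraries and was 9091545 and 12238751 counts in whole cord. Levels are given as CPM (counts per 1e6 counts) after TMM scaling (trimmed mean of M values), in the order sorted control 1, 3 and 4 and then whole cord 1 and 3. Mitochondrial ribosomal RNA took 3.59% to 4.05% of counts in the sorted libraries and 14.3% and 17.2% in whole cord. A single feature that carries the name of a microRNA, mmu-mir-689-2, took 8.49% to 9.73% in sorted and 14.4% and 12.2% in whole cord. Reads were 100 bases long, and which RNA gave these counts was not tested.

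The markers of the labelled cell type were high in the sorted libraries. The summed level of Col1a1, the proteoglycans Dcn and Lum and the T-box factor Tbx18 was 12121, 14612 and 14189 CPM in the sorted libraries and 46.2 and 119 CPM in whole cord. Col1a1 is the gene of the reporter used for sorting, so its high level (mean 6653 CPM in the sorted libraries) was selected for. Dcn had a mean of 6173 CPM there and Lum of 673 CPM. All 12 neuronal markers were lower in the sorted cells by the test over all genes given below, which called 28.6% of genes lower and 26.7% higher. Their sums were 9.55, 21.8 and 30.3 CPM against 9930.1 and 11846 CPM, and the inhibitory vesicle carrier Slc32a1 was at 0 in all 3 sorted libraries. The 8 oligodendrocyte markers summed to 80.3, 88.9 and 114 CPM against 19077 and 17209 CPM. Mural cells, which contract and support the vessel wall, had markers that went the other way. Of 12 mural markers 11 were higher in the sorted cells, with sums of 3211, 6042 and 4118 CPM against 175 and 300.3 CPM. The smooth muscle actin gene Acta2 stood at 517, 1158 and 585 CPM against 4.66 and 18.8 CPM, highest in sorted control 3. Its log2 difference of 5.97 was 5.30 without whole cord 1 and 7.30 without whole cord 3. The endothelial list had 7 of 10 members lower and 1 higher, and its sums of 241 to 281 CPM lay between the 2 whole cord values of 224 and 342 CPM. Its higher member was the junction gene Cdh5, at 197, 196 and 224 CPM against 18.01 and 26.5 CPM. Most of the endothelial sum in the sorted libraries came from Cdh5, but only a small part of the sum in whole cord. The tight junction gene Cldn5 stood at 0.460, 5.08 and 1.45 CPM against 21.6 and 33.8 CPM (-3.54 on the log2 scale, -4.77 without sorted control 3). Without whole cord 3, 4 endothelial markers were lower. Schwann cell markers summed to 419.8, 776 and 724 CPM in sorted and 186 and 305 CPM in whole cord. Most of the sorted sum came from 1 member, the neurotrophin receptor gene Ngfr (mean 456 CPM), which is not limited to Schwann cells. Of 8 tested members of that list 3 were higher and 1 lower. The median log2 difference was -0.25, and 0.04 with scaling by library totals. Microglial markers summed to 62.9 to 74.0 CPM against 198 and 178 CPM, and general leukocyte markers to 21.6, 4.70 and 10.6 CPM against 25.98 and 18.5 CPM. The part of mural and other cells in the results below was not tested.

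**Figure D1:**
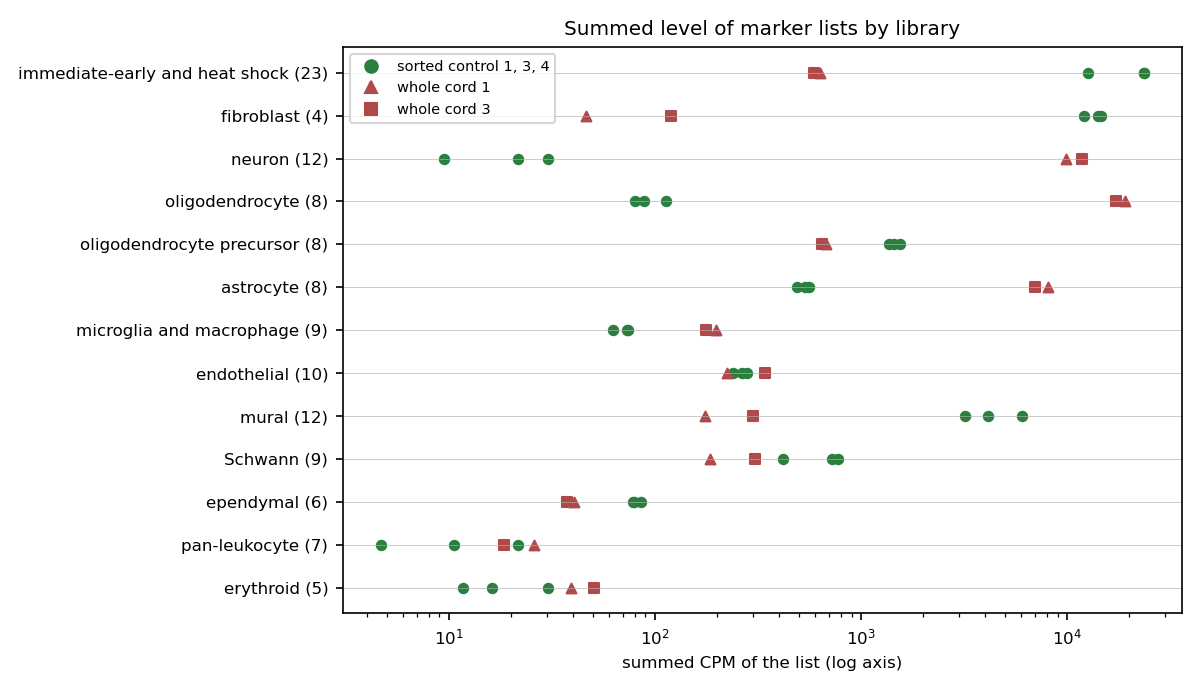
Summed CPM of each marker list (number of genes in brackets) on a log axis, 1 symbol per library. The fibroblast, mural and immediate-early sums of all 3 sorted libraries lie above both whole cord libraries, and the neuron and oligodendrocyte sums lie far below them. The endothelial sums lie between the 2 whole cord values, with most of the sorted sum from Cdh5.

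Other features moved with the groups as well. Among the list of immediate-early and heat shock genes, known to react fast to handling and heat in many cell types, 22 were tested, of which 21 were higher and 1 lower in the sorted cells. Their sum was 23569, 12642 and 23477 CPM in sorted against 632 and 595 CPM in whole cord, with sorted control 3 lowest among the sorted libraries. Their part in the differences below was not tested. The 2 whole cord libraries also differed: the fibroblast marker sum of whole cord 3 was 2.58 times that of whole cord 1. Of 774 genes at least 16-fold higher in the sorted cells, 20.8% were higher in whole cord 1 than in whole cord 3, against 45.8% of all tested genes.

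The first question was how much of the transcriptome separates these cells from the cord as a whole. The quasi-likelihood test of edgeR covered 16562 genes and called 4428 higher and 4730 lower in the sorted cells at a Benjamini-Hochberg adjusted p under 0.05. These are 26.7% and 28.6% of tested genes, 55.3% in all, so a family is read against these shares and against a median log2 difference of 0.04 over all tested genes. The libraries of the 2 groups did not overlap for 12301 genes, 74.3% of those tested. Leaving out whole cord 1 gave 2733 higher and 3358 lower genes, and without whole cord 3 these numbers were 2897 and 3419. Every adjusted p below is from the edgeR fit unless another tool is named, every difference is log2 of sorted over whole cord with its standard error (SE), and for each gene given with 5 values all sorted libraries lay on 1 side of both whole cord libraries unless stated.

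The share of higher genes lay above that of all genes for the listed transcription factors, secreted factors and receptors. The share of lower genes lay above it for the listed receptors and transporters. Families and members were chosen with earlier results of these data known, and some families were defined as mesenchymal. The shares therefore describe these lists and not each class as a whole. Of 356 transcription factor genes in 17 families 246 were tested, and 122 (49.6%) were higher and 56 (22.8%) lower, with a median of 0.96. Secreted factors came next, with 105 higher (46.9%) and 52 lower (23.2%) of 224 tested among 374, and a median of 1.56. Receptors split almost evenly, with 149 higher (39%) and 140 lower (36.6%) of 382 tested among 480. Transporters had 75 higher (24.2%) and 108 lower (34.8%) of 310 tested among 415. The remaining genes were at 0 in all 5 libraries or had too few counts: 40 and 70 transcription factors, 12 and 86 receptors, 28 and 77 transporters, and 40 and 110 secreted factors. The lower transcription factors numbered 36 without whole cord 1 and 31 without whole cord 3, and the higher transporters numbered 48 without whole cord 1. The transporter median of -0.23 became 0.05 when libraries were scaled by their totals alone.

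**Figure D2:**
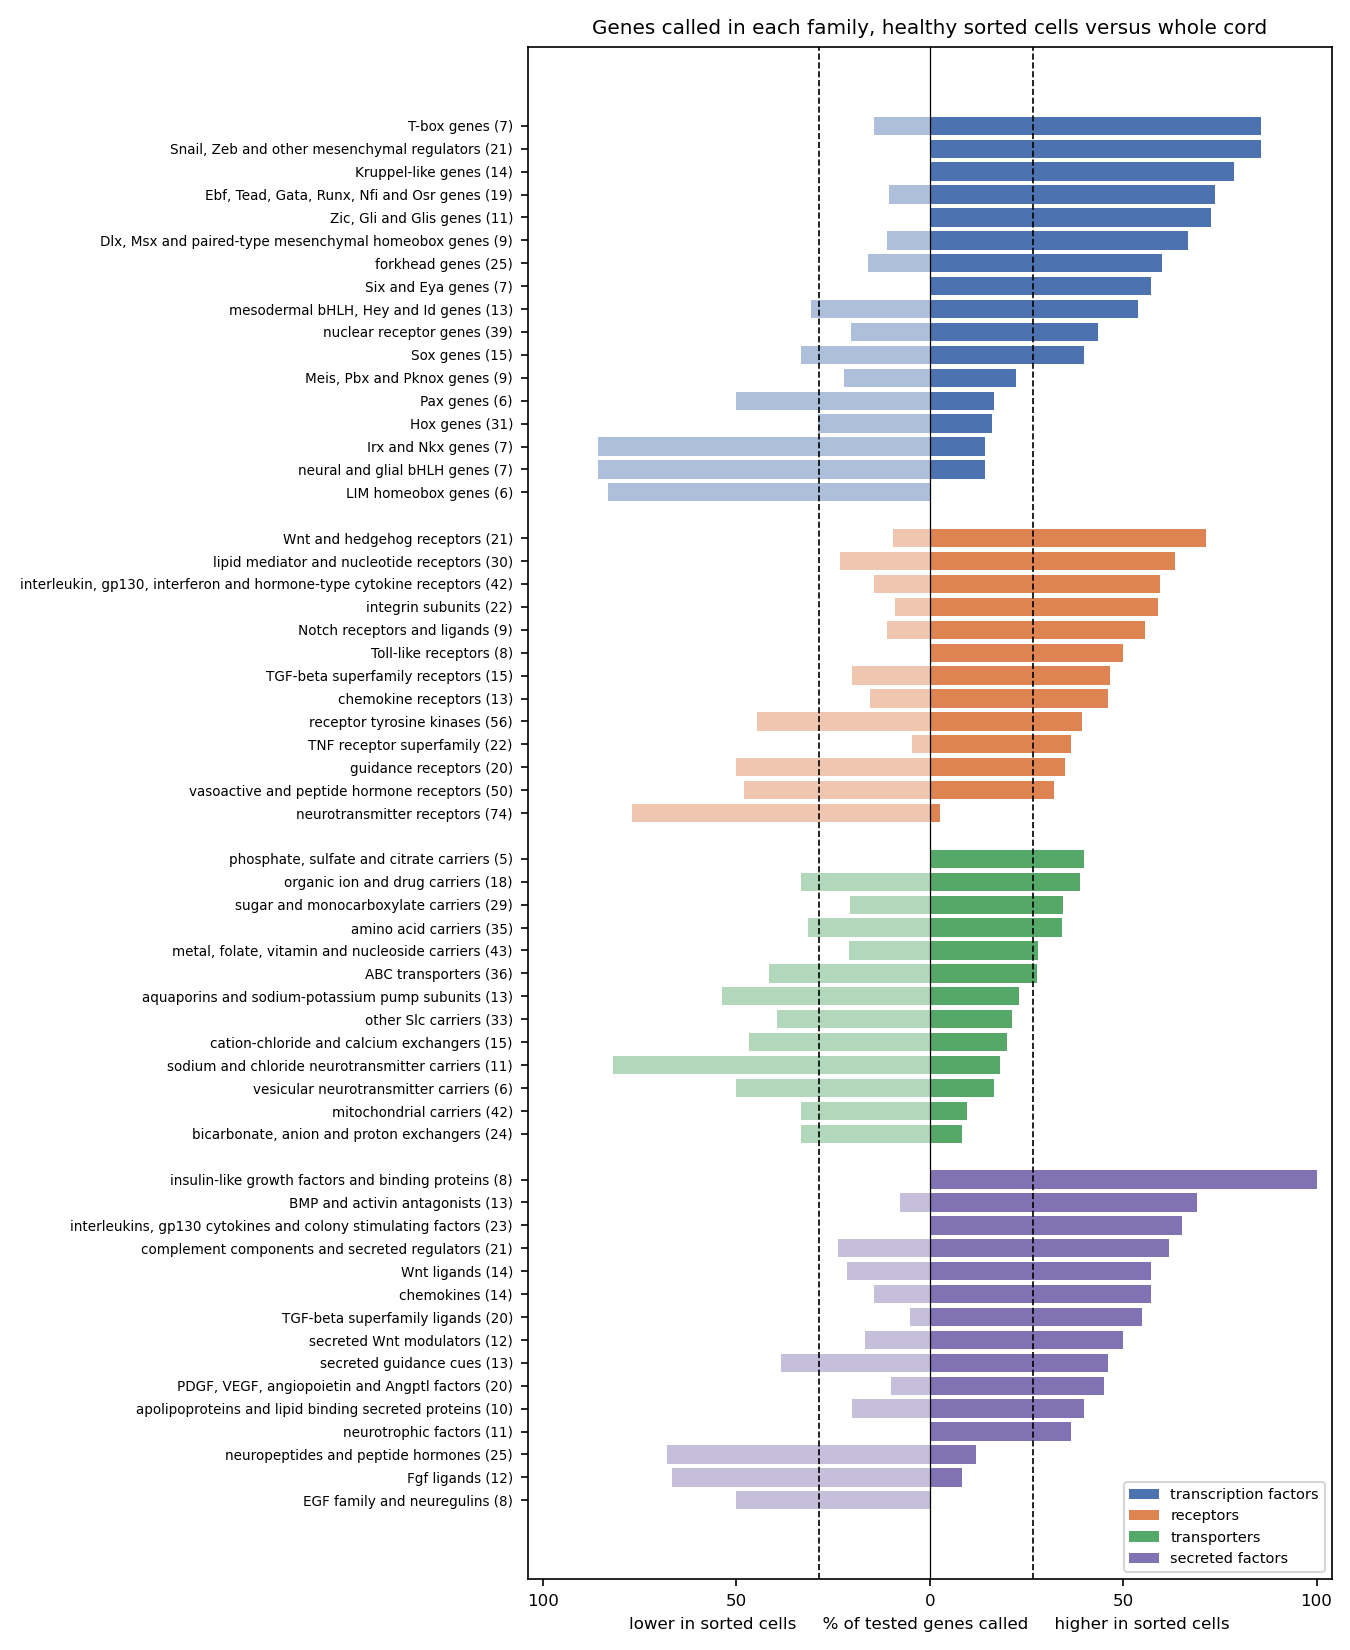
Share of tested genes called higher (dark bars, right) or lower (pale bars, left) in sorted cells for 58 gene families, with the number tested in brackets. Dashed lines mark the shares over all genes, 26.7% higher and 28.6% lower; insulin-like growth factors and their binding proteins reach 100% higher and neurotransmitter receptors 77.0% lower.

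Transcription factors known from mesenchyme were among the genes with large differences. Of 7 tested T-box genes 6 were higher and 1 lower. Tbx18, a factor of mesenchymal and mural lineages, stood at 144, 135 and 146 CPM in the sorted libraries and 0.858 and 1.29 CPM in whole cord. Its sorted values were close together, and the difference was 6.99 ± 0.22, adjusted p = 1.04e-06. Without whole cord 1 the Tbx18 value was 6.73, and without whole cord 3 it was 7.31. Tbx2, a T-box repressor, stood at 59.5, 75.02 and 70.96 CPM against 1.84 and 3.70 CPM. Tbx15, known from limb and skull mesenchyme, had no count in whole cord and stood at 7.82, 2.11 and 5.70 CPM in the sorted libraries, at least 32.1-fold higher (floor of 3 counts over the group, adjusted p = 0.0024). The zinc finger factor Osr2, known from palate and limb development, stood out by its near absence from whole cord counts. It had 2299 counts in the 3 sorted libraries (75.4, 91.4 and 62.5 CPM) and 1 count in whole cord, a ratio of 1446 with a 95% interval of 259 to 57130 that covers counting error only. Its paralogue Osr1 was 5.60 ± 0.37, adjusted p = 1.45e-05. The wider list of Ebf, Tead, Gata, Runx, Nfi and Osr genes had 14 of 19 higher and 2 lower.

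Forkhead genes were higher in 15 of 25 cases and lower in 4, with a median of 1.22. Foxc1, which the meninges need to form, stood at 432, 399.6 and 429 CPM against 6.37 and 14.1 CPM and was the forkhead gene with the highest level per kilobase of exon in the sorted cells (71.9 CPM per kb). Its sorted values were close together while whole cord 3 lay above whole cord 1. The difference was 5.33 ± 0.33, adjusted p = 1.06e-05. Its neighbour in the family, Foxc2, stood at 88, 107 and 94.5 CPM against 0.490 and 1.66 CPM (6.39 ± 0.36, SE). Foxd1, a factor of stromal precursors, stood at 52.7, 43.6 and 57.5 CPM against 0.735 and 1.11 CPM (5.75 ± 0.30, SE). Foxs1, reported in mural cells and their precursors, was 6.59 ± 0.61, adjusted p = 7.51e-05. Among the lower forkhead genes was Foxj1, the factor of motile cilia and a marker of ependymal cells, at 7.25, 0.0959 and 5.51 CPM against 24.6 and 23.8 CPM. Its call (-2.51 ± 0.88, adjusted p = 0.0443, and -1.91 without sorted control 3) was lost without sorted control 4, without either whole cord library and with DESeq2 (adjusted p = 0.158). The ependymal marker list that holds Foxj1 was mixed, with 1 of 4 tested members higher and 2 lower (none lower with either whole cord library left out, 1 with scaling by library totals). Its sum was higher in the sorted cells (79.4, 78.8 and 86.1 CPM against 40.4 and 37.5 CPM), and most of that sum came from its higher member Rarres2, the chemerin gene, at 70.7, 77.3 and 78.6 CPM against 2.70 and 1.94 CPM. With either whole cord library left out, 1 forkhead gene was lower. Leaving out whole cord 3 gave log2 values of 6.00 for Foxc1, 7.55 for Foxc2 and 5.18 for Tbx2.

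Genes of the Zic, Gli and Glis families, zinc finger factors tied to hedgehog signalling and midline development, were higher in 8 of 11 cases and lower in none. Zic1 was among the steadiest values of the comparison, at 351, 342 and 339.9 CPM against 24.4 and 24.6 CPM, a difference of 3.81 ± 0.13, adjusted p = 1.28e-06. Zic2 stood at 194, 197 and 209 CPM against 4.66 and 9.61 CPM and Zic4 at 56.9, 75.3 and 59.1 CPM against 3.43 and 3.70 CPM. Gli1, both an effector and a target of hedgehog signalling, stood at 143, 143 and 145 CPM against 3.43 and 4.44 CPM (5.17 ± 0.18, adjusted p = 1.33e-06). The list of Eya genes and their homeobox partners, which act together in muscle and connective tissue, had 4 of 7 members higher and none lower, with Eya1 at 44.6, 45.2 and 46.9 CPM against 1.59 and 1.85 CPM and Six5 at 47.97, 54.01 and 60.3 CPM against 1.23 and 2.40 CPM. The Zic2 difference of 4.78 ± 0.29 (SE) was 5.39 without whole cord 3.

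Regulators of mesenchymal state were higher almost throughout. Of 21 tested genes in the list of Snail, Zeb and other mesenchymal regulators 18 were higher and none lower. Creb3l1, which raises collagen secretion, stood at 365, 442 and 389 CPM against 3.80 and 4.53 CPM (6.57 ± 0.19, adjusted p = 1e-06). Twist1, a factor of head and limb mesenchyme, stood at 73.3, 33.9 and 53.9 CPM against 0.613 and 0.462 CPM (6.63 ± 0.51, adjusted p = 2.92e-05), lowest in sorted control 3. Prrx1, a homeobox factor of limb and connective tissue mesenchyme, stood at 133, 211 and 176 CPM against 8.45 and 8.78 CPM (4.33 ± 0.25, adjusted p = 7.26e-06). Meox2, which acts in vessel and muscle precursors, was 6.52 ± 0.59, adjusted p = 6.47e-05 and became 7.21 without whole cord 3. Tcf21, a fibroblast factor of other organs, had 13, 8 and 3 counts in the sorted libraries and none in whole cord, at least 5.03-fold higher, and was not tested.

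Nuclear receptors were higher in 17 of 39 cases and lower in 8. Nr2f2, an orphan receptor of mesenchyme and veins, stood at 562, 584 and 565 CPM against 27.2 and 30.2 CPM (4.31 ± 0.14, adjusted p = 1.17e-06). The orphan receptor Esrrg, which drives oxidative metabolism genes, was lower at 2.19, 2.11 and 2.17 CPM against 77.1 and 88.3 CPM (-5.25 ± 0.19, adjusted p = 1.47e-06). With either whole cord library left out, 10 nuclear receptors were higher and 4 lower. Krüppel-like genes were higher in 11 of 14 cases and lower in none. Klf4 had the highest level per kilobase of the 243 tested transcription factors with an exon length in the sorted cells (162 CPM per kb), at 683, 169.9 and 631 CPM against 5.39 and 8.60 CPM. Nr4a1, the third in that order after Creb3l1, stood at 753, 160.3 and 632 CPM against 7.72 and 8.04 CPM. Both belong to the immediate-early list, and both were lowest in sorted control 3, as was the sum of that list.

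LIM homeobox genes were lower in 5 of 6 cases, Irx and Nkx genes in 6 of 7 and neural and glial basic helix-loop-helix genes in 6 of 7. Olig1, a factor of the oligodendrocyte lineage, stood at 2.88, 5.66 and 4.79 CPM against 168 and 156 CPM (-5.17 ± 0.24, adjusted p = 3.54e-06). Sox genes were divided, with 6 of 15 higher and 5 lower (2 lower without whole cord 3). Sox2, a factor of neural stem cells and astrocytes, stood at 4.14, 1.82 and 1.54 CPM against 50.4 and 52.4 CPM (-4.39 ± 0.38, adjusted p = 5.44e-05). Sox8, known from glia and other tissues, was higher at 234, 351 and 269 CPM against 110.3 and 99.6 CPM (1.44 ± 0.19, adjusted p = 0.00052). The homeobox gene Nkx2-9 had no count in the sorted libraries, and was at least 82.2-fold lower than the 9.92 and 6.84 CPM of whole cord. Against the trend of their families, Nkx6-1, known from ventral progenitors and motor neurons, was higher in the sorted cells at 32.6, 51.3 and 34.1 CPM against 7.96 and 9.80 CPM (2.14 ± 0.28, adjusted p = 0.000474). Bhlhe22, known from spinal interneurons, was higher as well at 26.7, 26.9 and 22.8 CPM against 8.82 and 8.13 CPM (1.59 ± 0.22, adjusted p = 0.000705). The neuronal marker sums of these libraries were under 31 CPM, as given above. With 1 whole cord library left out, 3 neural basic helix-loop-helix genes and 3 LIM genes were lower.

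**Figure D3:**
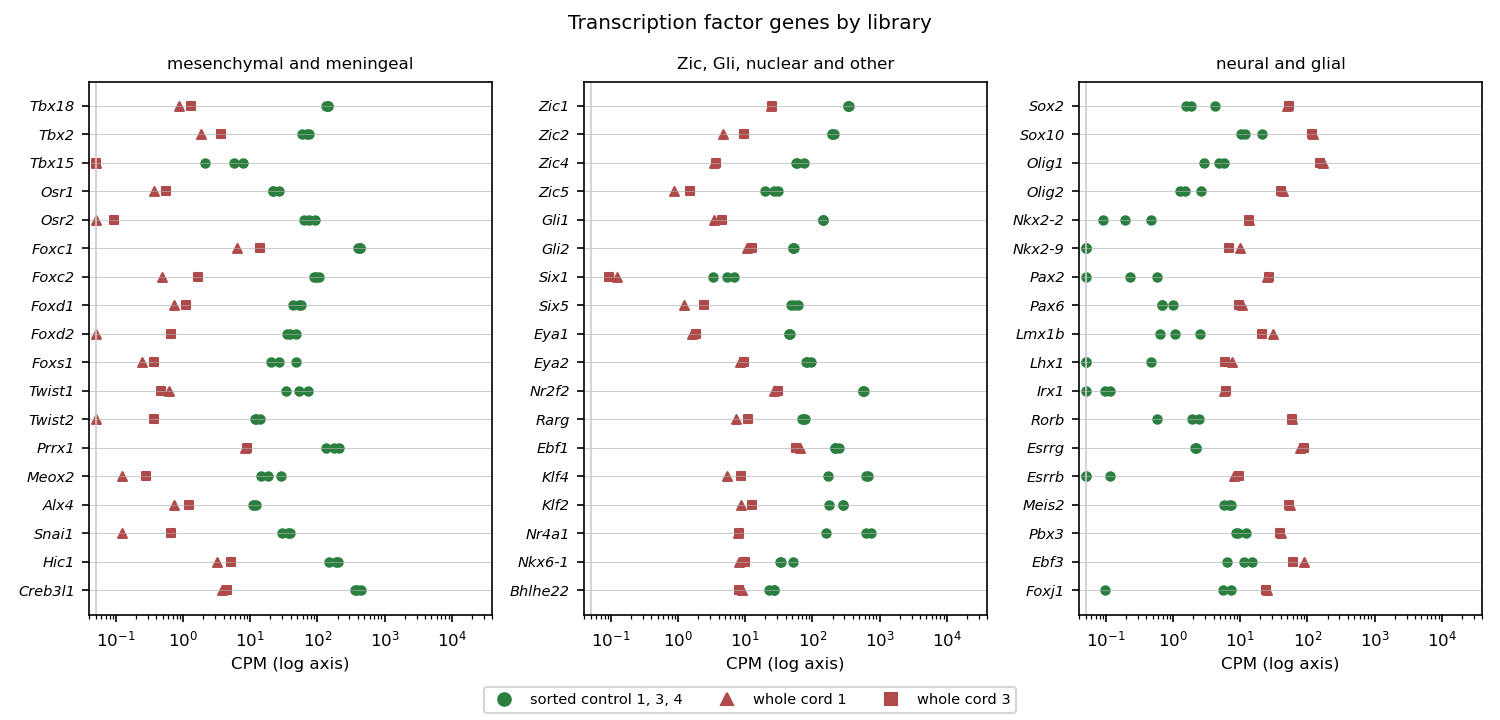
CPM of transcription factor genes in each of the 5 libraries on a log axis (grey line at the left edge, 0 counts). Mesenchymal genes such as Tbx18 and Foxc1 lie higher in all 3 sorted libraries, neural genes such as Sox2 and Olig1 lie lower, and Nkx6-1 and Bhlhe22 lie higher in the sorted cells.

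Hox genes differed by their place in the cluster rather than as a family. These genes are numbered along each cluster, and higher numbers are used further towards the tail. Of 31 tested Hox genes 5 were higher, 9 lower and 17 not called. The share of lower genes, 29%, lay near the 28.6% of all genes, and 16.1% were higher against 26.7%. Paralogues 11 to 13 summed to 30.8, 23.2 and 31.6 CPM in the sorted libraries and to 0 and 0.740 CPM in whole cord, and the 3 of them that were tested were higher. Hoxa11 stood at 5.18, 9.40 and 10.4 CPM against 0 and 0.370 CPM (5.26 ± 0.86, adjusted p = 0.00147), a value of 4.42 without whole cord 1 and 9.32 without whole cord 3. Hoxd11 had 322 counts in sorted and 3 in whole cord, a ratio of 67.5 (95% interval 22.9 to 329), and Hoxc11 had 222 counts against 1, a ratio of 140 (24.8 to 5539). Hoxc12 had 8, 17 and 10 counts in the sorted libraries and none in whole cord, at least 7.34-fold higher, and was not tested.

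The middle of the clusters went the other way. Paralogues 6 to 9 summed to 271, 291 and 326 CPM in the sorted libraries and 543 and 504 CPM in whole cord, and 7 of 12 were lower with none higher. The lower genes were those of paralogues 7 and 8 and, by less, Hoxb9 and Hoxc9. These 2 differed by -0.90 ± 0.27 (adjusted p = 0.025) and -0.62 ± 0.21 (adjusted p = 0.0365). Both of these calls were lost with either whole cord library left out. The genes of paralogue 6 were not called. Hoxb8 stood at 5.06, 5.18 and 5.33 CPM against 35.5 and 36.4 CPM (-2.79 ± 0.21, adjusted p = 2.56e-05). Hoxc8 stood at 26.6, 21.9 and 25.5 CPM against 106 and 61.01 CPM (-1.76 ± 0.24, adjusted p = 0.000611) and Hoxa7 at 34.6, 45.9 and 49.8 CPM against 113 and 98.1 CPM (-1.28 ± 0.18, adjusted p = 0.000699). Between these groups of genes, paralogue 10 separated the 2 whole cord libraries from each other. Its 3 genes summed to 53.6, 77.2 and 62.5 CPM in sorted, 7.11 CPM in whole cord 1 and 57.0 CPM in whole cord 3, and none was called. Hoxc10 stood at 22.7, 29.2 and 21.3 CPM in sorted against 4.41 and 29.8 CPM in whole cord, so whole cord 3 lay above all sorted libraries, and its log2 value of 0.50 turned to -0.32 without whole cord 1 and passed the test at 2.43 (adjusted p = 0.00277) without whole cord 3. Near the head end the calls went both ways, with 1 gene higher and 1 lower in paralogues 1 to 3 and again in paralogues 4 and 5. Hoxb4 was higher at 23.1, 26.2 and 27.2 CPM against 7.35 and 9.80 CPM (1.57 ± 0.24, adjusted p = 0.00109), and so was Hoxa3 (1.59 ± 0.39, adjusted p = 0.0109), a call lost without whole cord 1. Hoxd3 was lower at 3.80, 1.25 and 1.27 CPM against 7.11 and 12.5 CPM (-2.24 ± 0.59, adjusted p = 0.0142), was -2.93 without sorted control 1 and lost its call without whole cord 3. Hoxb5 was lower by less (-0.91 ± 0.23, adjusted p = 0.0122), a call lost without either whole cord library and with scaling by library totals. Hoxd1 had no count in the sorted libraries and 2.21 and 1.11 CPM in whole cord, at least 15.9-fold lower, and was not tested. Without whole cord 3, 9 Hox genes were higher and 5 lower, and with scaling by library totals 8 were higher. Which levels of the cord entered each sorted pool is not stated in the sources used here, and reads of neighbouring Hox genes could not be assigned by strand.

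**Figure D4:**
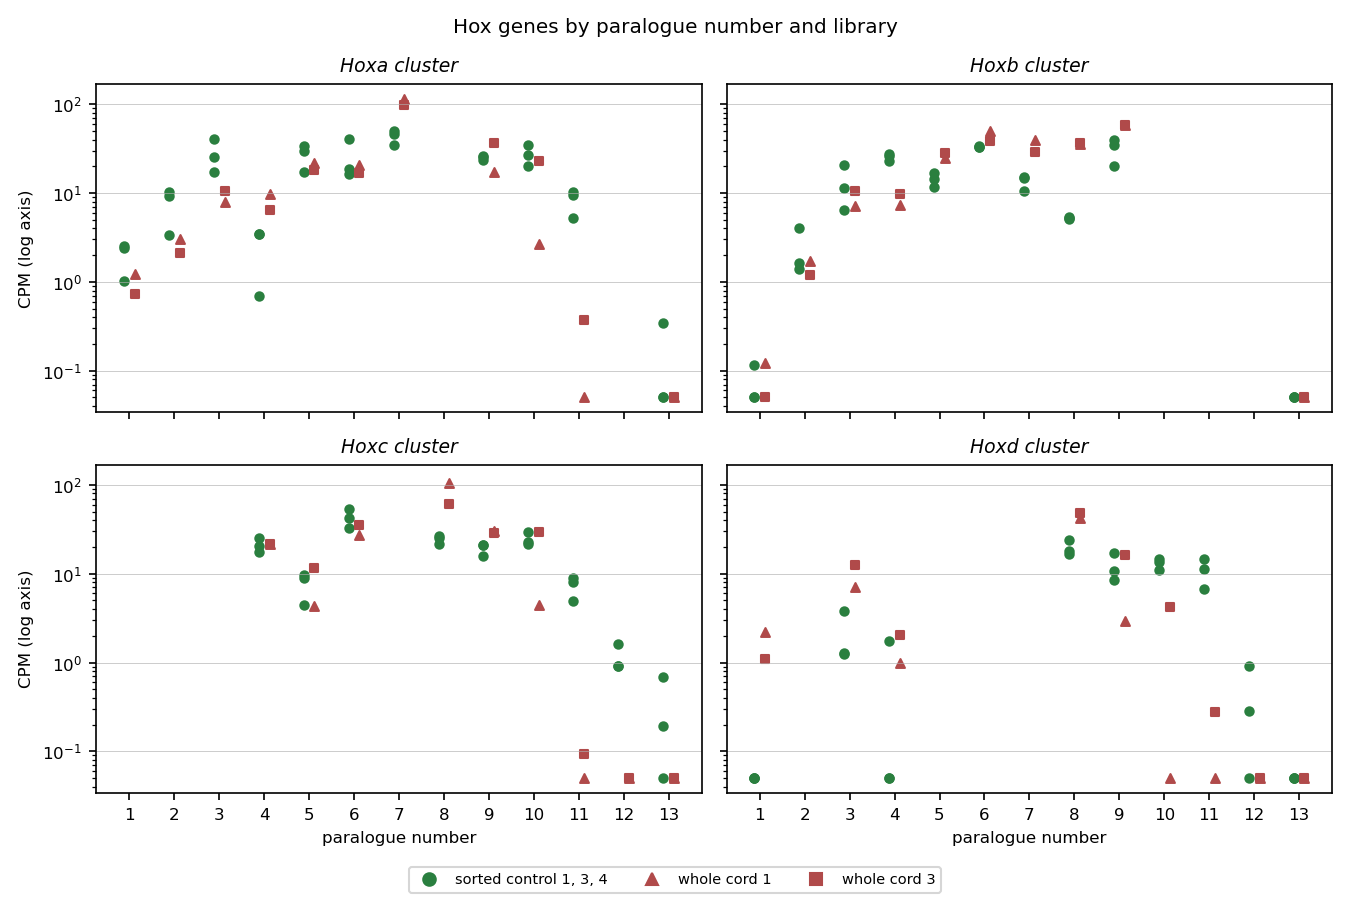
CPM of each Hox gene by paralogue number (1 to 13) in the 4 clusters on a log axis, 1 symbol per library, with 0 counts drawn at the bottom. The 3 genes of paralogue 11 lie above the whole cord in the sorted libraries, paralogues 7 and 8 lie below it, and whole cord 1 and 3 part at paralogue 10.

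Promoter sequences are shown for 5 higher genes, picked after their values were seen: Tbx18 and Zic1 from the transcription factors above, and Ngfr, Slc13a4 and Apod from the receptors, transporters and secreted factors below. Each line gives the 250 bases before the annotated start from RefSeq on build GRCm38.p6, written 5′ to 3′ on the minus strand, with matches of CCAAT in capitals (read as ATTGG where the match lies on the opposite strand). CCAAT and TATAAA were each searched on both strands and counted separately, so matches that overlap each other both count.
Tbx18, chr9:87731261-87731510: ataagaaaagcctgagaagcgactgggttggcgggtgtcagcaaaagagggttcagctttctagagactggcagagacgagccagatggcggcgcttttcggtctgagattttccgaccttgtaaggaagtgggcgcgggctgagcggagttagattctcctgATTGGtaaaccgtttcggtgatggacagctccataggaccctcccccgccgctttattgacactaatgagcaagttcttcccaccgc
Zic1, chr9:91365769-91366018: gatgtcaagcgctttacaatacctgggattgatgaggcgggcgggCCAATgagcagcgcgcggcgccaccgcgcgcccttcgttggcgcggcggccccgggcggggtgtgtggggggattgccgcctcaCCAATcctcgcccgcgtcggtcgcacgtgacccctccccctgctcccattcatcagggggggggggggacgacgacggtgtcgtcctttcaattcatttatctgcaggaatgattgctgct
Slc13a4, chr6:35308127-35308376: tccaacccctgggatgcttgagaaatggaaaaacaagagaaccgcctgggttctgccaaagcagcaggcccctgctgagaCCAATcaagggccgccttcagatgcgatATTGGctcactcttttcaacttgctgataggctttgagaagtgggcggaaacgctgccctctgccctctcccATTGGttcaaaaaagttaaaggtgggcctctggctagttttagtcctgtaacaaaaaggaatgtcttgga
Ngfr, chr11:95587699-95587948: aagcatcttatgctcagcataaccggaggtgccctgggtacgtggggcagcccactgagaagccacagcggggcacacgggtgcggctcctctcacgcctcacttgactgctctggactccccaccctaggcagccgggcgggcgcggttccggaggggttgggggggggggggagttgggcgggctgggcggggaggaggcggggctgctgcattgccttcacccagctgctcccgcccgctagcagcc
Apod, chr16:31314809-31315058: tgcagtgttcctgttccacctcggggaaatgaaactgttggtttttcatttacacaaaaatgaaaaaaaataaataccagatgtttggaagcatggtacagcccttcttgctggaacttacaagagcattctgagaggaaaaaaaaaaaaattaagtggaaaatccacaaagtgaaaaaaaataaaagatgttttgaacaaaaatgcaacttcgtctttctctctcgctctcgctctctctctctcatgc
The Tbx18 window held 1 match, 87 bases before the start. That of Zic1 held 2, at 205 and 121 bases, and that of Slc13a4 held 3, at 170, 142 and 70 bases. The windows of Ngfr and Apod held none. CCAAT stood in 34.7% of the 22862 windows of genes with 1 start, in 36.3% of 8471 tested genes and in 29% of 404 genes at least 16-fold higher in the sorted cells. TATAAA stood in 13.6%, 6.36% and 11.9% of the same sets. Among 632 genes at least 16-fold lower the shares were 35.9% for CCAAT and 5.54% for TATAAA. A match of these letters is a description of the window and nothing more.

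Receptor tyrosine kinases were higher in 22 of 56 cases and lower in 25. Pdgfra, the platelet-derived growth factor receptor of fibroblasts and of oligodendrocyte precursors, stood at 1093, 1172 and 1182 CPM against 51.3 and 48.99 CPM (4.52 ± 0.14, adjusted p = 1.1e-06). Of 8 markers of those precursors 6 were lower, and the other higher one was the proteoglycan gene Cspg4, which mural cells share (3.00 ± 0.21, adjusted p = 2.02e-05). Pdgfrb, shared by fibroblasts and mural cells, stood at 459.7, 662 and 643 CPM against 18.01 and 26.4 CPM (4.72 ± 0.27, adjusted p = 7.19e-06). The collagen receptor Ddr2 stood at 366, 362 and 354 CPM against 6.25 and 12.1 CPM (5.27 ± 0.28, adjusted p = 5.61e-06) and the Wnt5a receptor Ror1 at 121, 112 and 90.8 CPM against 2.08 and 2.87 CPM (5.42 ± 0.25, adjusted p = 3.23e-06). Musk, best known as the agrin co-receptor kinase of the muscle synapse, was higher at 25.5, 13.1 and 21.97 CPM against 0.123 and 0.370 CPM (6.21 ± 0.58, adjusted p = 7.85e-05). Fgfr1 differed less, at 702, 729 and 675 CPM against 119 and 126 CPM (2.52 ± 0.13, adjusted p = 4.35e-06), and Igf1r least among these, at 97.2, 114 and 102 CPM against 59.9 and 73.6 CPM (0.64 ± 0.15, adjusted p = 0.00817), a call lost without whole cord 1. On the lower side stood the neuregulin receptor Erbb4 (0.575, 3.07 and 0 CPM against 97.4 and 90.5 CPM) and the endothelial receptor Kdr (2.07, 0.672 and 1.36 CPM against 23.04 and 30.1 CPM). Without whole cord 3 the Musk value was 7.19, and without sorted control 3 that of Erbb4 was -8.44 (-5.61 without sorted control 4) in place of -6.25.

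Receptors of developmental signals were mostly higher. Wnt and hedgehog receptors were higher in 15 of 21 cases and lower in 2, Notch receptors and ligands in 5 of 9 and 1, and receptors of the TGF-beta superfamily in 7 of 15 and 3. The Wnt receptor Fzd2 stood at 130.2, 135 and 113 CPM against 3.19 and 3.14 CPM (5.31 ± 0.19, adjusted p = 1.42e-06). The higher TGF-beta receptors included Tgfbr3, a co-receptor also known as betaglycan, at 559.7, 533 and 580.1 CPM against 22.8 and 31.98 CPM (4.34 ± 0.19, adjusted p = 2.91e-06). Tgfbr2, the receptor kinase that binds the ligand, stood at 238, 244 and 243 CPM against 26.5 and 26.4 CPM (3.19 ± 0.13, adjusted p = 1.85e-06). Notch3, the Notch receptor of mural cells, stood at 211, 430.4 and 376 CPM against 25.98 and 39.2 CPM (3.37 ± 0.36, adjusted p = 0.000155), with its ligand Jag1 at 158, 140.0 and 141 CPM against 9.19 and 16.2 CPM. Bmpr1b, a receptor kinase for BMPs, by contrast was lower at 2.53, 1.82 and 0.633 CPM against 36.6 and 31.2 CPM (-4.37 ± 0.45, adjusted p = 0.000133).

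Receptors for cytokines of the interleukin 6 family showed differences of unequal size. The list of cytokine receptors had 25 of 42 members higher and 6 lower. Osmr, the oncostatin M receptor, stood at 194, 125 and 136 CPM against 2.45 and 4.90 CPM (5.32 ± 0.35, adjusted p = 1.43e-05). The shared signalling chain Il6st (gp130) stood at 1016, 1119 and 949 CPM against 168 and 149 CPM (2.70 ± 0.15, adjusted p = 6.03e-06). Lifr, the leukaemia inhibitory factor receptor, lay slightly below whole cord at 139, 132 and 155 CPM against 171 and 180.1 CPM, without passing the test (-0.30 ± 0.12, adjusted p = 0.0673); it passed with DESeq2 (adjusted p = 0.0319), voom (0.0426) and median-ratio scaling (0.0393). The leptin receptor gene Lepr, a marker of stromal cells in other tissues, stood at 226, 203 and 187 CPM against 3.19 and 4.81 CPM (5.66 ± 0.22, adjusted p = 1.87e-06). The interleukin 1 receptor Il1r1 stood at 72.9, 54.97 and 68.2 CPM against 2.21 and 4.81 CPM (4.18 ± 0.33, adjusted p = 3.39e-05), and was 4.85 without whole cord 3. Toll-like receptors were higher in 4 of 8 cases (2 with a whole cord library left out), among them Tlr4, the lipopolysaccharide receptor, at 14.04, 14.01 and 14.01 CPM against 1.10 and 1.39 CPM. Ngfr, the low-affinity neurotrophin receptor of the tumour necrosis factor receptor family, had the highest level per kilobase of the 382 tested receptors in the sorted cells (132 CPM per kb). It stood at 227, 626 and 515 CPM against 4.66 and 6.93 CPM (6.28 ± 0.54, adjusted p = 5.05e-05), lowest in sorted control 1. Leaving out whole cord 1 left 3 cytokine receptors lower.

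Integrins were more often higher than lower, and neurotransmitter receptors more often lower. Integrin subunits were higher in 13 of 22 cases and lower in 2. The collagen-binding subunit Itga11 stood at 65.9, 66.5 and 84.7 CPM against 1.35 and 2.96 CPM (5.02 ± 0.33, adjusted p = 1.34e-05) and Itga8, a partner for nephronectin and fibronectin, at 44.2, 68.97 and 50.9 CPM against 2.08 and 2.03 CPM (4.73 ± 0.30, adjusted p = 1.24e-05). Itgb8, which activates latent TGF-beta, was lower at 32.8, 35.7 and 30.4 CPM against 193 and 179 CPM (-2.50 ± 0.13, adjusted p = 5.14e-06). Guidance receptors divided, with 7 of 20 higher and 10 lower: Plxnd1, an endothelial and mesenchymal plexin, was 3.84 ± 0.23, adjusted p = 8.92e-06 and Plxna4, a plexin of neurons, was -4.62 ± 0.16, adjusted p = 1.22e-06. Among receptors of vasoactive and lipid signals, S1pr3 stood at 116, 144 and 108 CPM against 5.51 and 5.27 CPM (4.51 ± 0.21, adjusted p = 3.36e-06), while S1pr5, a sphingosine 1-phosphate receptor of oligodendrocytes, stood at 0.230, 0.863 and 0.362 CPM against 70.5 and 61.9 CPM. Ramp2, the partner of the adrenomedullin receptor, stood at 121, 157 and 133 CPM against 7.60 and 10.2 CPM (3.94 ± 0.21, adjusted p = 5.66e-06). The endothelin receptor Ednra stood at 30.5, 54.7 and 39.6 CPM against 4.17 and 3.33 CPM (3.48 ± 0.33, adjusted p = 9.3e-05). Of 74 tested neurotransmitter receptor genes 57 were lower and 2 higher, and the 2 were Chrnb1 (18.3, 23.3 and 19.6 CPM against 4.04 and 6.01 CPM), the muscle-type acetylcholine receptor subunit, and Gabre (8.28, 20.2 and 6.87 CPM against 3.68 and 2.68 CPM), a GABA receptor subunit. The Gabre value of 1.90 was 1.27 without sorted control 3, and its call was lost without either whole cord library and with voom. Without whole cord 3 the Itga11 value was 5.70, and without sorted control 3 that of S1pr5 was -7.69 in place of -7.03.

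Transporters had 75 higher and 108 lower members, but 89 and 91 with scaling by library totals, and the higher ones included carriers known from barrier tissues. Slc6a13, a carrier of GABA and taurine found in the meninges, stood at 227, 281 and 289 CPM against 1.10 and 3.33 CPM (6.83 ± 0.37, adjusted p = 6.04e-06). The sulfate carrier Slc13a4 stood at 215, 288 and 248 CPM against 0.858 and 3.33 CPM (6.82 ± 0.42, adjusted p = 1.05e-05). Slc22a3, an organic cation carrier that takes up monoamines, stood at 28.3, 67.3 and 49 CPM against 0.123 and 0.647 CPM (6.81 ± 0.63, adjusted p = 7.88e-05). In each of these 3 genes whole cord 3 lay above whole cord 1, and the log2 values without whole cord 3 were 7.86, 8.13 and 8.45. Without whole cord 1 the Slc13a4 and Slc22a3 values were 6.2 and 6.17. The betaine carrier Slc6a12 was higher as well (4.46 ± 0.35, adjusted p = 3.06e-05), so that 2 of 11 Slc6 carriers were higher and the other 9 lower. Slc47a1, which exports organic cations, stood at 5.64, 6.24 and 6.33 CPM against 0.245 and 0.277 CPM (4.46 ± 0.58, adjusted p = 0.000431). Slc22a8, an organic anion carrier, differed by 1.23 ± 0.31, adjusted p = 0.0123 at 15.1, 22.3 and 20.8 CPM against 6.37 and 10.1 CPM, and the call was lost without whole cord 1 and in a fit of all 11 libraries (adjusted p = 0.0788). The nucleoside carrier Slc29a1 stood at 81.4, 112 and 69.8 CPM against 6.49 and 6.38 CPM (3.77 ± 0.27, adjusted p = 1.91e-05).

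ABC transporters, pumps that use ATP, were higher in 10 of 36 cases and lower in 15 (9 without whole cord 3). The share of higher members, 27.8%, lay near the 26.7% of all genes, and 41.7% were lower against 28.6%. A set of closely related genes was among the higher members. Abca8a stood at 1003, 1212 and 1020.0 CPM against 8.33 and 14.7 CPM (6.53 ± 0.29, adjusted p = 3.17e-06), Abca9 at 738, 1019 and 816 CPM against 8.09 and 14.1 CPM (6.26 ± 0.31, adjusted p = 4.21e-06) and Abca6 at 378, 414 and 337 CPM against 7.35 and 8.69 CPM (5.54 ± 0.18, adjusted p = 1.21e-06). Reads that fit more than 1 of them could not be resolved from the counts. The drug pumps of the blood-brain barrier behaved otherwise. Abcg2 stood at 30.9, 18.6 and 18.2 CPM against 15.8 and 13.5 CPM and did not pass the test (0.62 ± 0.30, adjusted p = 0.116), but passed with scaling by library totals (adjusted p = 0.0386). Abcb1a was lower at 16.8, 9.40 and 7.32 CPM against 23.4 and 32.2 CPM (-1.32 ± 0.37, adjusted p = 0.0173), a call lost without whole cord 3. The glucose carrier Slc2a1 overlapped between the groups, at 113, 33.5 and 59.7 CPM against 96.7 and 97.99 CPM (-0.50 ± 0.42, adjusted p = 0.347), and was -1.04 (adjusted p = 0.0189) without sorted control 1.

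Amino acid carriers were higher in 12 of 35 cases and lower in 11, shares of 34.3% and 31.4% that lie near those of all genes. Slc1a5, an exchanger of glutamine and neutral amino acids, stood at 144, 98.6 and 97.5 CPM against 1.59 and 2.13 CPM (5.90 ± 0.30, adjusted p = 4.9e-06). Slc38a1, the glutamine carrier of neurons, stood at 2.53, 2.88 and 2.71 CPM against 315 and 268 CPM (-6.74 ± 0.16, adjusted p = 7.51e-07). The glutamate carriers of astrocytes parted: Slc1a3 was higher at 333, 346 and 355 CPM against 120.1 and 100.5 CPM (1.64 ± 0.13, adjusted p = 3.65e-05), and Slc1a2 was lower at 4.72, 13.4 and 14.5 CPM against 3519 and 3506 CPM. Both belong to a list of 8 astrocyte markers, of which 2 were higher and 5 lower. The sums of that list were 488, 537 and 558 CPM against 8036 and 7018 CPM. Cation-chloride and calcium exchangers were higher in 3 of 15 cases and lower in 7. Slc12a5, the potassium-chloride carrier of neurons, was lower at 5.41, 6.91 and 5.97 CPM against 542 and 571 CPM (-6.51 ± 0.15, adjusted p = 7.51e-07). Its ubiquitous relative Slc12a4 was higher at 82.7, 82.7 and 74.1 CPM against 15.1 and 17.7 CPM (2.28 ± 0.16, adjusted p = 1.97e-05). Mitochondrial carriers were higher in 4 of 42 cases (1 with a whole cord library left out) and lower in 14.

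Secreted factors of the insulin-like growth factor system were higher in all 8 tested cases. Igf1 stood at 305, 499.8 and 516 CPM against 8.09 and 14.4 CPM (5.27 ± 0.37, adjusted p = 1.84e-05). Igf2 stood at 1119.8, 1277 and 1602 CPM against 17.8 and 44.7 CPM (5.40 ± 0.44, adjusted p = 3.84e-05), and was 4.87 without whole cord 1 and 6.19 without whole cord 3. Binding proteins, which hold these factors in the extracellular space, included Igfbp6 at 412, 254 and 298 CPM against 1.84 and 6.38 CPM (6.23 ± 0.48, adjusted p = 3.08e-05, 5.62 without whole cord 1 and 7.41 without whole cord 3), and Igfbp2 stood at 154, 205 and 326 CPM against 12.1 and 24.1 CPM (3.64 ± 0.42, adjusted p = 0.000258). The lipocalin Apod, a carrier of small lipids, had the highest level per kilobase of all tested secreted factors in the sorted cells (9746 CPM per kb). It stood at 24780.0, 26347 and 24218 CPM against 466 and 437 CPM (5.80 ± 0.18, adjusted p = 1.04e-06), with both groups tightly spaced. Apoe, second in that order and named for it, overlapped between the groups at 1298, 1326 and 1835 CPM against 1399 and 1302 CPM.

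Many ligands of the BMP and Wnt families were higher, with exceptions. Ligands of the TGF-beta superfamily were higher in 11 of 20 cases and lower in 1. Bmp4 stood at 55.3, 37.99 and 60.7 CPM against 1.35 and 1.29 CPM (5.27 ± 0.33, adjusted p = 1.17e-05), Bmp6 at 175, 171 and 233 CPM against 8.94 and 11 CPM (4.26 ± 0.22, adjusted p = 5.03e-06) and Bmp7 at 165, 157 and 192 CPM against 5.88 and 7.49 CPM (4.67 ± 0.19, adjusted p = 2.23e-06). Secreted antagonists of these ligands were higher in 9 of 13 cases and lower in 1, among them Sostdc1 (3.61 ± 0.49, adjusted p = 0.000544) and Chrdl1 (3.44 ± 0.38, adjusted p = 0.000187). Wnt ligands were higher in 8 of 14 cases and lower in 3. Wnt6 stood at 18.4, 21.4 and 29.4 CPM against 0.613 and 0.924 CPM (4.86 ± 0.40, adjusted p = 4.43e-05), Wnt4 at 91.3, 72.6 and 131 CPM against 5.51 and 6.29 CPM (4.05 ± 0.31, adjusted p = 2.92e-05) and Wnt5a at 227, 373 and 291 CPM against 17.5 and 20.2 CPM (3.97 ± 0.25, adjusted p = 1.21e-05). Wnt7b, a ligand that neural cells send to brain endothelium, went the opposite way at 0.345, 0.0959 and 0 CPM against 23.4 and 21.8 CPM (-7.27 ± 0.61, adjusted p = 4.67e-05). Without whole cord 1, 5 Wnt ligands were higher, and without whole cord 3, 4. Leaving out sorted control 1 gave -8.57 for Wnt7b and leaving out sorted control 4 gave -6.65.

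Complement genes were higher in 13 of 21 cases and lower in 5, and the members in each direction differed. Serping1, the inhibitor of the first complement component, stood at 1326, 1239.8 and 1321 CPM against 3.68 and 14.6 CPM (7.11 ± 0.54, adjusted p = 2.91e-05), with whole cord 3 well above whole cord 1. The protease gene C1ra stood at 66.6, 70.7 and 57.9 CPM against 0.368 and 1.57 CPM (5.96 ± 0.40, adjusted p = 1.55e-05). C1qa, a subunit that microglia make, was lower at 0.805, 1.73 and 0 CPM against 19.7 and 14.9 CPM (-4.35 ± 0.84, adjusted p = 0.00348). Without whole cord 1 the values of Serping1 and C1ra were 6.44 and 5.33, without whole cord 3 they were 8.42 and 7.38, and without sorted control 3 that of C1qa was -5.51 (-3.73 without sorted control 4). Chemokines were higher in 8 of 14 cases and lower in 2. Cxcl12, the chemokine of stromal and meningeal cells, stood at 314, 342 and 406 CPM against 53.7 and 63.1 CPM (2.60 ± 0.17, adjusted p = 1.33e-05). Cx3cl1, the fractalkine of neurons, was lower at 66.1, 32.2 and 42.7 CPM against 169.9 and 155 CPM (-1.79 ± 0.27, adjusted p = 0.000996). Of 23 tested interleukins, gp130 cytokines and colony stimulating factors 15 were higher and none lower (9 and 8 higher without whole cord 1 and without whole cord 3). The alarmin Il33 stood at 142, 135 and 138 CPM against 65.6 and 68.5 CPM (1.05 ± 0.12, adjusted p = 0.000214).

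Peptides and growth factors that act on vessels and neurons completed the secreted set. Edn3, a ligand of endothelin receptors, stood at 154, 179 and 233 CPM against 2.21 and 3.98 CPM (5.89 ± 0.32, adjusted p = 5.94e-06). Adm, the vasodilator adrenomedullin, stood at 73.9, 46.7 and 61.7 CPM against 1.72 and 2.50 CPM (4.82 ± 0.32, adjusted p = 1.4e-05). Angpt2, a ligand of the endothelial Tie2 receptor, stood at 74.3, 129.8 and 149 CPM against 1.72 and 3.14 CPM (5.56 ± 0.43, adjusted p = 3.04e-05). Of 25 neuropeptides and peptide hormones 17 were nonetheless lower and 3 higher, and Adcyap1, a peptide of neurons, had no count in the sorted libraries (at least 178-fold lower). Fgf ligands were lower in 8 of 12 cases and higher in 1, and the EGF family and neuregulins were lower in 4 of 8 with none higher. Nrg3 stood at 0.230, 0.288 and 0.181 CPM against 39.7 and 45.9 CPM (-7.45 ± 0.32, adjusted p = 2.34e-06). The growth factors Mdk and Ptn, both heparin-binding, were higher, with Mdk at 128, 161 and 177 CPM against 13.6 and 15.6 CPM (3.41 ± 0.20, adjusted p = 8.28e-06) and Ptn at 465, 507 and 762 CPM against 102 and 93 CPM (2.57 ± 0.24, adjusted p = 8.29e-05). Secreted guidance cues were higher in 6 of 13 cases and lower in 5 (3 with a whole cord library left out). Among them the basement membrane netrin Ntn4 was higher (3.29 ± 0.31, adjusted p = 8.41e-05) and Sema3a lower (-4.10 ± 0.34, adjusted p = 4.03e-05).

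**Figure D5:**
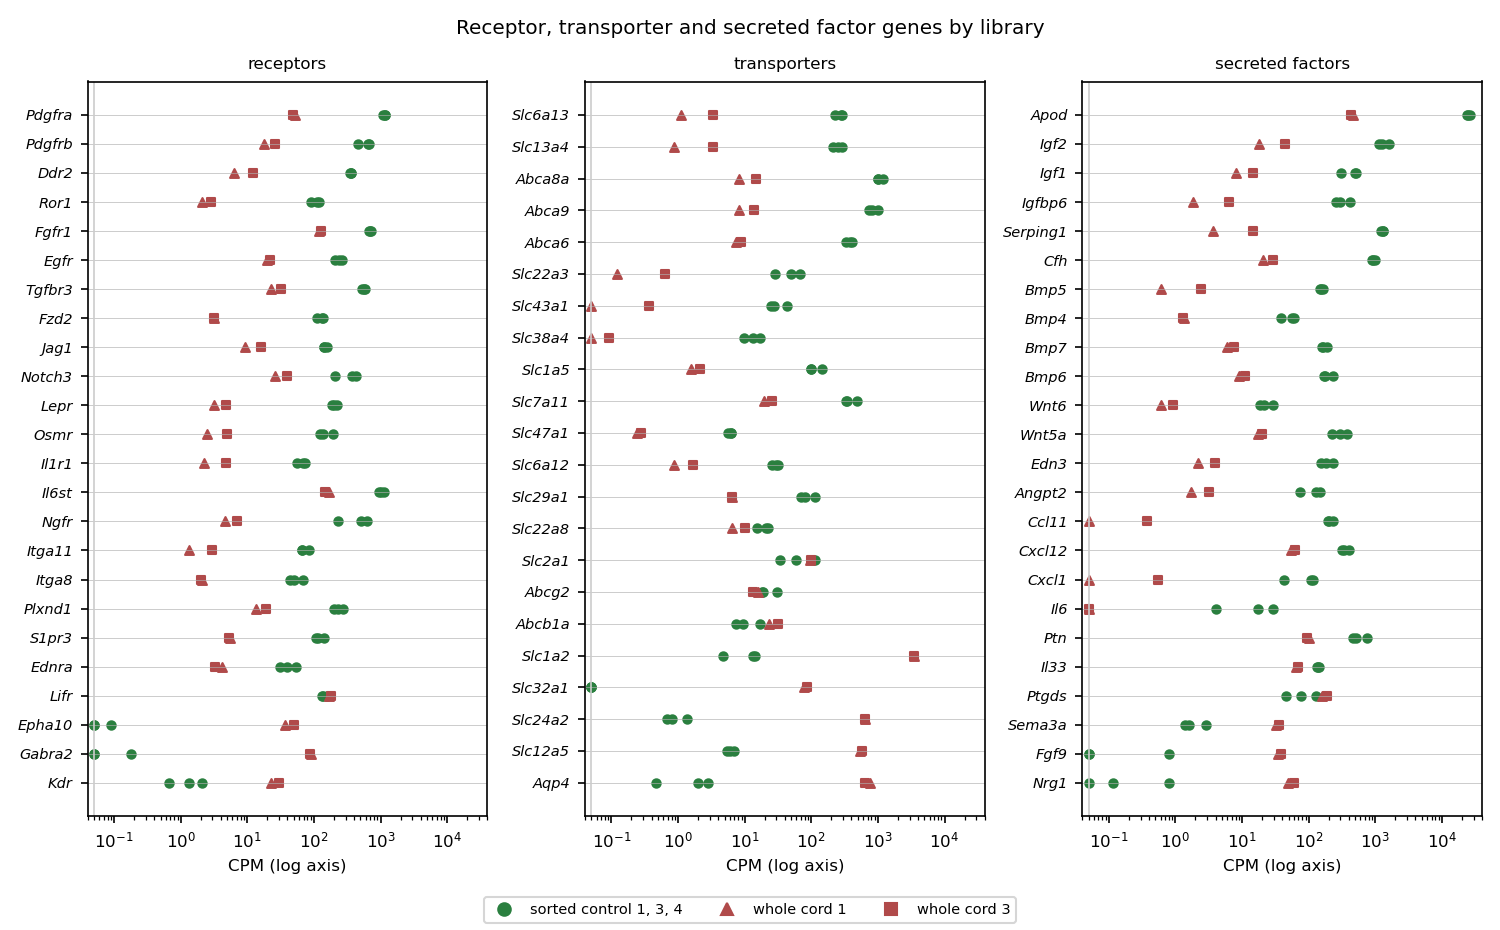
CPM of receptor, transporter and secreted factor genes in each of the 5 libraries on a log axis (grey line at the left edge, 0 counts). Genes such as Pdgfra, Abca8a and Apod lie higher in all sorted libraries, Slc1a2 and Slc12a5 lie lower, and Slc2a1 overlaps between the groups.

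Genes known from each of the 3 layers of the meninges were among the higher ones. All 8 pial genes were higher in the sorted cells, with a median of 4.75. Lama2, a basement membrane laminin chain, measured 2699, 2911 and 2561 CPM against 20.8 and 30.3 CPM (6.73 ± 0.24, adjusted p = 1.47e-06), and Col18a1, a collagen of basement membranes, measured 522, 738 and 737 CPM against 8.70 and 12.4 CPM (5.97 ± 0.27, adjusted p = 3.34e-06). Of 10 tested dural genes 8 were higher and 1 lower. Alx4, a homeobox factor of skull mesenchyme, stood at 10.8, 12.3 and 11.3 CPM against 0.735 and 1.20 CPM (3.52 ± 0.41, adjusted p = 0.000236) and Fap, a protease of activated fibroblasts, at 57.98, 61.5 and 53.7 CPM against 0.123 and 0.370 CPM (7.71 ± 0.34, adjusted p = 2.69e-06, 8.70 without whole cord 3). Arachnoid genes were divided, with 8 of 13 higher and 3 lower, and their sum differed less (708, 669.6 and 821 CPM against 386 and 421 CPM). Aldh1a2, the enzyme that makes retinoic acid, stood at 146, 149.8 and 165 CPM against 1.47 and 4.99 CPM (5.50 ± 0.39, adjusted p = 2.06e-05, 4.91 without whole cord 1 and 6.66 without whole cord 3). Ptgds, the prostaglandin D synthase of the leptomeninges, was lower at 77.8, 44.99 and 129 CPM against 157 and 186 CPM (-1.03 ± 0.37, adjusted p = 0.0486), and the call was lost without sorted control 1, without either whole cord library and with scaling by library totals (adjusted p = 0.121). Cldn11, a tight junction gene of both arachnoid barrier cells and oligodendrocytes, was lower at 21.2, 4.89 and 6.42 CPM against 169.7 and 150.3 CPM (-3.91 ± 0.53, adjusted p = 0.000576, -4.79 without sorted control 1).

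The sorted pools resembled each other closely for most members, and a small set varied. Among genes with at least 10 CPM in the sorted libraries, the median standard deviation (SD) of log2 CPM over the 3 pools was 0.22 for 158 transcription factors, 0.21 for 165 receptors, 0.24 for 166 transporters and 0.28 for 94 secreted factors, against 0.21 for 9018 genes in all. The transcription factor with the largest SD was Nr4a3 (1.69), an immediate-early gene at 144, 16.7 and 114 CPM in sorted control 1, 3 and 4. Lowest in sorted control 3 were likewise Cxcl1, a chemokine for neutrophils (115, 42.6 and 110.0 CPM), Il6, the interleukin 6 gene (17.1, 4.03 and 28.8 CPM), Lif, the leukaemia inhibitory factor (13, 2.49 and 7.96 CPM), and Gdf15, a stress-induced cytokine (8.74, 2.49 and 13.7 CPM). The immediate-early sum was lowest in the same library, and whether the 2 are linked was not tested. In the other direction, sorted control 3 was the highest of the pools for the mural genes Acta2 and Myh11 (1144, 2142 and 1239 CPM).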

How the data were processed

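RNA of sorted Col1a1GFP cells and of whole spinal cord was sequenced as paired-end reads of 100 bases. The authors deposited whole-number read counts per gene for 11 libraries, with CPM columns beside them, per the file headers. The submitters' processing notes name build mm9, HTSeq 0.6.1, DESeq2, TopHat2 2.0.11, SAMtools 0.1.19 and Bowtie2 2.2.1. Gene annotation and strand setting are not stated in the sources used here, so values of overlapping, antisense and near-identical genes are uncertain. The deposited CPM equalled each count over its column total within 1.5e-11, so the counts were used and the deposited CPM served as a check. The table held 37991 genes and 1 line of column totals, which was removed. Genes were kept by identifier for 3401 entries with a shared symbol, 24 symbols were stored as dates, and exon lengths for levels per kilobase came from the GRCm38 annotation, which held 32919 of the identifiers.

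The 5 healthy libraries were fitted with edgeR 4.0.16 (quasi-likelihood test, robust, TMM scaling, its own filter on low counts) in R 4.3.3, and calls were made at a Benjamini-Hochberg adjusted p under 0.05 over all 16562 genes tested. The SE of an edgeR difference was derived from the test, as its absolute log2 value over the square root of the F statistic. Replicate numbers served as names only. Counts were also simulated for 16562 genes from mean levels over the 5 libraries. The fit recovered 30% of 100 genes changed 2-fold and 69% of 100 changed 4-fold, and called 8 unchanged genes. No other genes were changed there, while 55.3% were called in the real data. These shares therefore need not hold for the real comparison. Genes fell into 75 lists, 58 of them by role and 12 of them cell type markers. Members and lists were chosen with earlier results of these data known. Named genes are those of a rule, 341 in all: the 4 fibroblast markers and every Hox gene, the leading called genes of each list at 5 CPM or more and of each class at 10 CPM or more, the most abundant marker of each cell type, and a set list of genes of interest. Apoe falls outside it and was taken up after its values were seen. The rule's leading genes have the largest differences by construction. A fold against a group with no count is given against 3 counts over that group, and ratios with 1 to 3 counts carry 95% intervals. Both cover counting error alone. The 14 alternatives included DESeq2 1.42.0 and voom of limma 3.58.1. The 6 libraries from diseased mice entered 1 alternative fit only.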

Additional observations from a re-analysis of the deposited data

How the results depend on the processing

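Of the 311 named genes that were called, none changed direction under any of the 14 alternatives in which it was tested (309 to 311 genes). The rule picked leading genes for large differences in these same libraries, so their kept directions say little about other genes. The calls kept numbered 304 with library totals as the only scaling, 309 with DESeq2, 299 with voom, 282 without whole cord 1 and 283 without whole cord 3. Over all genes, those called higher numbered 2733 without whole cord 1 and 2897 without whole cord 3, and leaving out a sorted library gave 4118 to 4919. Transcription factors called lower numbered 31 to 60 with 1 library left out, and transporters called higher 48 (without whole cord 1) to 83. With 1 whole cord library left, that library is assumed to vary as the sorted ones did. Scaling by library totals moved the median log2 difference over all genes by 0.28 and upper-quartile scaling by 0.13, and genes called higher then made up 58.2% and 53.0% of calls, against 48.4%.

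The replicate block called 3601 genes higher and 4148 lower. Deviations of same-numbered libraries gave r = -0.03 and -0.04. With 2 whole cord libraries these mirror each other, so the values say little, and the labels give no pairing.

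Signs turned for some Hox genes that were not called. Library totals gave 0.19 for Hoxa9, 0.25 for Hoxc4 and 0.23 for Hoxc5, and upper-quartile scaling 0.036, 0.098 and 0.073. The replicate block gave -0.086 for Hoxa6, 0.046 for Hoxa9, -0.013 for Hoxb3 and 0.37 for Hoxc5. With 1 library left out, the values ran from -0.083 (sorted control 4) to 0.69 for Hoxa6, from -0.56 to 0.53 (whole cord 3) for Hoxa9, from -0.16 to 0.10 (sorted control 1) for Hoxc4, from -0.62 to 0.81 (whole cord 3) for Hoxc5, from -0.32 (whole cord 1) to 2.43 for Hoxc10 and from -0.46 (whole cord 1) to 2.00 for Hoxd9. Leaving out sorted control 4 gave 0.24 for Hoxc5. The causes were not tested. Levels near 1 CPM rest on few counts.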
